A study of Mus musculus with 4 samples.

Results

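A set of 10 genes of bone morphogenetic protein (BMP) signalling was followed in mouse fetal ovaries that overexpress Sall1. They comprised the ligands Bmp2, Bmp4, Bmp5 and Bmp7, the noncoding RNA Rubie, whose gene lies upstream of Bmp4, the secreted antagonist Grem1, and the response genes Id1, Id2, Id3 and Smad6. The 10 were picked by name from the 34682 genes of the count table with the difference between mutant and wild type already known. That difference is therefore given below as a description, without a test, for every one of them. Of these, 9 had enough reads to enter the genome-wide comparison, and Grem1 did not.

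RNA-seq was performed on ovaries at embryonic day E13.5, with 2 mutant libraries, which overexpress Sall1, and 2 wild-type libraries. In the mutants a bacterial artificial chromosome carrying the promoter and regulatory elements of Wt1 drives the Sall1 coding sequence, so the transgene is directed to the Wt1-positive somatic cells of the gonad and not to a single cell type. The construct was introduced into female embryonic stem cells by PiggyBac transposition, and transgenic mice were made from these cells by morula aggregation. How the mutant embryos were obtained from there is not given in the sources used here. The mutant column headers carry MutSall1N2, which is not explained. The methods give C57BL/6J or hybrid C57BL/6J-129 stem cells, with the transfected line derived from C57BL/6J embryos. For the wild-type libraries the column headers carry B6, the results describe littermate controls and the methods name CD1 gonads for RNA-seq. The sources thus differ on the strain of the wild type, and its part in the differences was not tested. Nothing in the sources used here says that the libraries of a group came from separate animals, so that all errors measure the spread between these samples, which may be technical. Libraries held 11036313 to 17869840 counts. Levels are given as CPM (reads of the gene per 1000000 counted reads of the library) after scaling between libraries, and log2 fold changes are mutant relative to wild type with their standard error (SE). Sall1 itself stood at 113 and 96.0 CPM in the mutant libraries and at 16.2 and 12.6 CPM in the wild-type libraries (log2 fold change 2.85, SE 0.16, edgeR quasi-likelihood test, adjusted p = 0.00823).

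BMPs are secreted ligands of the TGF-beta family. They bind complexes of type I and type II serine/threonine kinase receptors, which phosphorylate Smad1, Smad5 and Smad9. These enter the nucleus with Smad4 and switch on, among others, the Id genes, whose products are helix-loop-helix proteins without a DNA-binding region, and Smad6, an inhibitory Smad that feeds back on the pathway. Antagonists such as gremlin, noggin and chordin hold the ligands outside the cell. In the fetal ovary, Bmp2 is known as a gene of the somatic supporting lineage.

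The start regions of 4 of the genes are shown here, since the results below turn on Rubie, Bmp4 and Bmp5, and Id2 serves as a response gene with a searched motif. Each is the 300-base window from 250 bases before to 50 bases after the start in RefSeq (GRCm38.p6), read on the gene's strand. Rubie lies at chr14:46575802-46576101 (minus strand), Bmp4 at chr14:46390620-46390919 (minus), Bmp5 at chr9:75775115-75775414 (plus) and Id2 at chr12:25096043-25096342 (minus). Capitals mark a match to a searched motif.
Rubie: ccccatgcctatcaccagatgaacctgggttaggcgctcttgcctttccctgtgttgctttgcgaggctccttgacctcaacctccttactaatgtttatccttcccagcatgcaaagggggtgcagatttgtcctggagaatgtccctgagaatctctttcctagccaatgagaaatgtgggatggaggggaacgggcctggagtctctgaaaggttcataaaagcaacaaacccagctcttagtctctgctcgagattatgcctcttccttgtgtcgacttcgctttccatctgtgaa
Bmp4: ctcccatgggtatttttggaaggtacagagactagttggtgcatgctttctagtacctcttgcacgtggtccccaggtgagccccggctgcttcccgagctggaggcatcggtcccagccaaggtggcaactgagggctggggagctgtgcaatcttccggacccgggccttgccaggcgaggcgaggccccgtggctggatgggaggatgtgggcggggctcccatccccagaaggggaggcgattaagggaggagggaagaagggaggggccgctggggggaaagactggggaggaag
Bmp5: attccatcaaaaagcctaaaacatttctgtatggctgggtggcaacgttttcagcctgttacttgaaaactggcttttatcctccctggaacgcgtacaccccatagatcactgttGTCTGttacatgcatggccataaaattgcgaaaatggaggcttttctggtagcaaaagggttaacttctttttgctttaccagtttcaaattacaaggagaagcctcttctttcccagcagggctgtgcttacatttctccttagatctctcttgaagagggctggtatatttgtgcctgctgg
Id2: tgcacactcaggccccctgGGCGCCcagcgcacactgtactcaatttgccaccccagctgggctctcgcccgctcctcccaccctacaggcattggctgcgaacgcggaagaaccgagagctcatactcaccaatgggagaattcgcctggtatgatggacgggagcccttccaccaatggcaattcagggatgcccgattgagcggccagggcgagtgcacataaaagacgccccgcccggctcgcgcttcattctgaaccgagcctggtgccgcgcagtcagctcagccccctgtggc

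RefSeq windows were matched for 7 of the 10 genes (Bmp4, Rubie, Bmp5, Grem1, Id2, Id3 and Smad6); Bmp2, Bmp7 and Id1 are named only. Both strands were searched for 3 short words. GGCGCC, a GC-rich word bound by Smad proteins in BMP-responsive genes, was found in 2 of the 7 windows (Grem1 and Id2) and in 11.9% of 32851 windows of all genes. CAGAC, the Smad-binding word, was found on either strand in 3 of the 7 (Grem1, Id3 and Bmp5) and in 49.6% of all. AATATT, an AT-rich word of the kind bound by the related protein Sall4, was in 0 of the 7 and in 6.81% of all. The windows of Rubie and Bmp4 held none of the 3 words. The GC content was 50% in the Rubie window, 64% in that of Bmp4, 43.3% in that of Bmp5 and 63.3% in that of Id2. These matches describe the letters of the windows and no binding was measured.

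Across the 15442 genes tested, 9 passed an adjusted p of 0.05 with edgeR (0.0583%), 2 of them higher in the mutants (0.0130%) and 7 lower (0.0453%). None of the 9 tested members was among them (0 of 9). At an unadjusted p under 0.05, 5 of the 9 were counted (Bmp2, Bmp4, Bmp5, Rubie and Id1), against 5.69% of all genes. DESeq2 called 0.714% of all genes and 3 of the members (Bmp2, Bmp5 and Rubie). Since the members were selected on the same contrast, nothing is read from these counts. In 3 members both mutant libraries lay above both wild-type libraries (Bmp4, Bmp7 and Rubie), as in 15.8% of all genes tested. In 3 others both lay below (Bmp2, Bmp5 and Id1), as in 15.1% of all genes. The groups overlapped in Id2, Id3 and Smad6. The median log2 fold change of the 9 members was -0.08, beside -0.0009 over all genes tested.

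**Figure D1:**
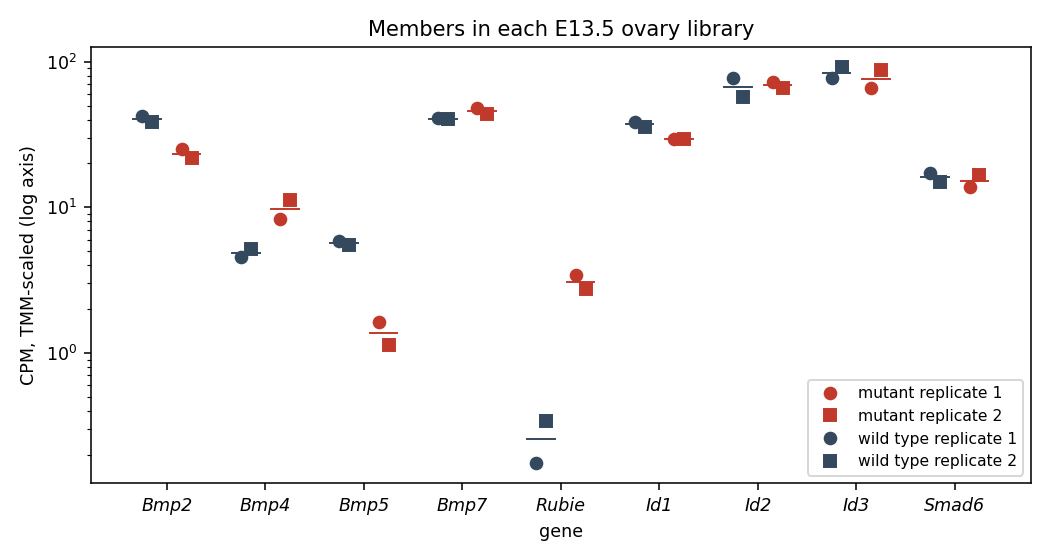
Level of each member in each library, in CPM on a log axis; points are the single libraries of mutant and wild-type ovaries and short bars are the group means (n = 2 per group). Grem1 is not drawn, since 2 of its libraries held 0 counts. Rubie and Bmp4 sit higher in both mutant libraries, Bmp5 and Bmp2 sit lower, and the points of Id2, Id3 and Smad6 overlap.

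The ligands did not move together. Bmp2 and Bmp5 were lower in both mutant libraries, Bmp4 was higher in both, and Bmp7 differed little. Bmp2 (chr2:133377895-133388621, plus strand, NCBIM37), which signals through Bmpr1a and Bmpr1b, stood at 25.0 and 21.9 CPM in the mutant and 42.7 and 38.5 CPM in the wild-type libraries. The lower wild-type library thus lay well above the higher mutant one. The group means were 23.4 ± 2.18 and 40.6 ± 2.96 CPM (SD, n = 2), a level 1.74-fold lower in the mutants (log2 fold change -0.80, SE 0.13). In whole-ovary RNA, fewer cells of a type and less RNA per cell cannot be told apart, here and in all values that follow.

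Bmp5, the gene of the mouse short ear mutation (chr9:75623171-75748117, plus strand), was the least abundant of the 4 ligands per kb of exon. It had 18 and 17 counts in the mutants and 101 and 97 in wild type, or 1.63 and 1.13 CPM against 5.87 and 5.50 CPM. The groups were far apart relative to the gap within either of them. Its mean was 4.14-fold lower in the mutants (log2 fold change -2.05, SE 0.33), the 43rd lowest fitted value of the 15442 genes tested. The annotation places an opposite-strand gene, Gm16662, over 1878 exonic bases of Bmp5. It is not a row of the count table, and whether the counting used strand is not given in the sources used here, so the assignment of these reads to Bmp5 is uncertain.

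Bmp4 (chr14:47003195-47010344, minus strand), a ligand of the same subgroup as Bmp2, went the other way. Its libraries held 91 and 169 counts in the mutants and 79 and 91 in wild type, which are 8.26 and 11.2 CPM against 4.59 and 5.16 CPM. Both mutant libraries were higher, but they also differed from each other by 0.44 on the log2 CPM scale, more than the wild-type libraries did (0.17). The means were 9.74 ± 2.10 and 4.87 ± 0.399 CPM (SD, n = 2), a log2 fold change of 1.00 (SE 0.25). The narrowest distance between the groups, from the lower mutant to the higher wild-type library, was 0.68 on the log2 scale. Opposite-strand Gm15217 overlaps 89 exonic bases of Bmp4, and had 1, 0, 0 and 1 counts in mutant 1, mutant 2, wild type 1 and wild type 2.

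Bmp7 (chr2:172693513-172765822, minus strand), best known for maintaining nephron progenitors in the kidney, stood at 47.8 and 43.5 CPM in the mutants and at 40.9 and 40.3 CPM in wild type. The groups did not overlap, but by a distance of no more than 0.09 on the log2 scale, less than the gap of 0.14 between the mutant libraries. The log2 fold change was 0.17 (SE 0.11).

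Rubie, a noncoding RNA known from the inner ear, had the highest fitted log2 fold change of the 15442 genes tested. Rubie counts were 38 and 41 in the mutants and 3 and 6 in wild type. These are 3.45 CPM (95% exact Poisson interval 2.44 to 4.73) and 2.73 CPM (1.96 to 3.70) in the mutants, against 0.174 CPM (0.036 to 0.510) and 0.340 CPM (0.125 to 0.740) in wild type. The intervals cover counting error only and leave out the spread between libraries. They are no test of the genotypes, since Rubie was picked with this difference known. The fitted fold was 11.6 (log2 fold change 3.53, SE 0.50), and the ratio of the pooled counts, scaled by library size, was 11.7. The wild-type libraries lay at or close to the floor of 3 counts, and Rubie had few counts in the mutants too.

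The gene was identified by way of its RefSeq synonym Gm15219, at chr14:47189888-47195522 on the minus strand of NCBIM37. Its start lies 185.2 kb upstream of that of Bmp4, on the same strand. For each 100 Bmp4 counts the mutants had 41.8 and 24.3 Rubie counts, and wild type had 3.80 and 6.59. This ratio is taken within a library and does not depend on scaling between libraries, and it was higher in both mutants although Bmp4 was itself higher there.

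Other genes around Bmp4 were compared to see whether the interval as a whole moved. Of the 15 other annotated genes with a start within 1 Mb of that of Bmp4 and a row in the count table, 13 were tested. None passed the adjusted threshold with edgeR or with DESeq2, and 0 had an unadjusted p under 0.05. Their median log2 fold change was -0.02, and they ran from -0.69 (Lgals3, SE 0.65) to 0.22 (Cgrrf1). All 13 lay below Bmp4 and Rubie. That order says little, since both were picked with this difference known and ranked 176 and 1 from the top of the 15442 genes tested. The log2 fold changes of the remaining 11 were those of Fermt2 (-0.05), Ddhd1 (0.09), the pseudogene Gm1821 (-0.02), Cdkn3 (0.16), Cnih1 (-0.08), Gmfb (-0.09), Samd4 (0.09), Gch1 (-0.00), Wdhd1 (-0.04), Socs4 (0.16) and Mapk1ip1l (-0.05). Gm1821 shares sequence with its parent gene, which makes its counts uncertain. In 3 of the 13 both mutant libraries were higher and in 1 both were lower, beside 15.8% and 15.1% of all genes.

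**Figure D2:**
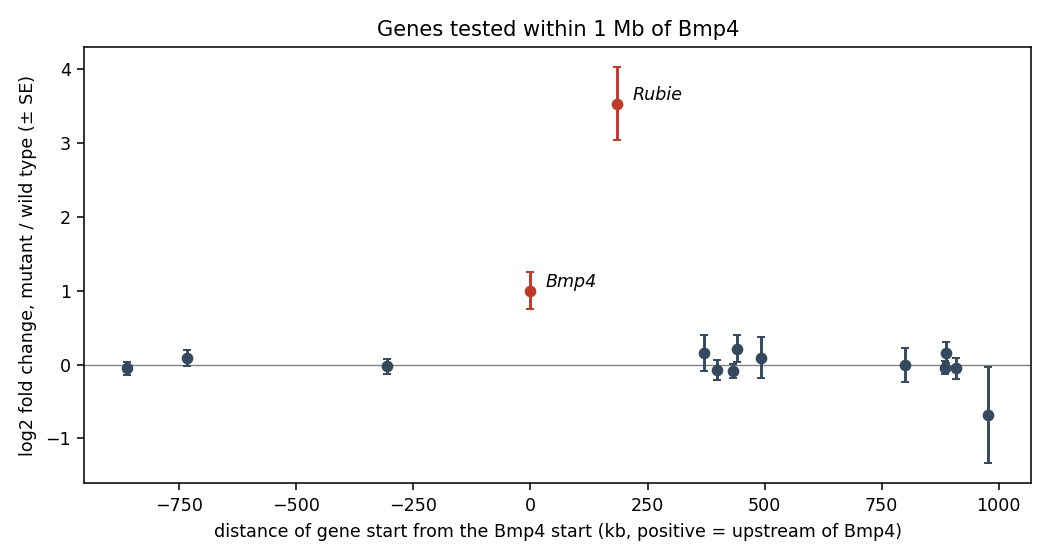
Log2 fold change (mutant relative to wild type, with SE) of the tested genes within 1 Mb of Bmp4, plotted by the distance of their starts from that of Bmp4 in kb. Rubie (3.53) and Bmp4 (1.00), both picked with this difference known, stand above the neighbours, which lie between -0.69 and 0.22.

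The 4 ligand genes were also set against each other within each library, as CPM per kb of exon, which makes levels of different genes comparable. Their summed level was 23.0 and 22.3 CPM per kb in the mutants and 25.7 and 24.5 CPM per kb in wild type, so that the sum was slightly lower in both mutants while the make-up differed more. Of this sum, Bmp2 made up 30.5 and 27.6% in the mutants and 46.7 and 44.2% in wild type. It was the leading ligand transcript in both wild-type libraries. Bmp7 made up 51.7 and 48.5% in the mutants and 39.5 and 40.8% in wild type, and led in both mutants.

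Bmp4 contributed 16.1 and 22.7% in the mutants against 8.03 and 9.45% in wild type. Bmp5 contributed 1.76 and 1.26% against 5.67 and 5.56%. The shares of each of the 4 ligands did not overlap between the groups, which is in part a consequence of shares adding up to the whole. Per kb of exon, the level of Bmp2 was 5.82 and 4.67 times that of Bmp4 in the wild-type libraries and 1.89 and 1.22 times in the mutants. The ratio of Bmp7 to Bmp2 turned from 0.846 and 0.925 in wild type to 1.70 and 1.76 in the mutants. With raw counts in place of counts per kb, Bmp2 and Bmp7 each had a mean share of 44.2% in wild type, so the leading place of Bmp2 there depends on the exon lengths used.

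**Figure D3:**
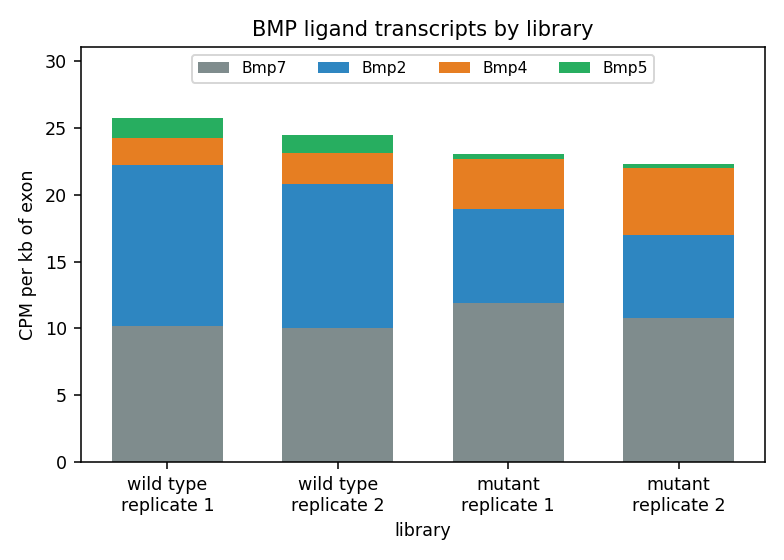
Stacked bars of the 4 BMP ligands in each library, in CPM per kb of exon from 0. The total is 22.3 to 25.7 in all libraries, with a smaller Bmp2 part and a larger Bmp4 part in both mutants.

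Grem1 (chr2:113586321-113598803, minus strand), an antagonist that binds Bmp2, Bmp4 and Bmp7, was barely detected. Mutant 1 had 1 count and wild type 1 had 4, and there were 0 counts in the second library of each genotype. The floor of 3 counts lies at 0.199 CPM in mutant 2 and 0.170 CPM in wild type 2. The upper 95% exact Poisson bounds of their 0 counts are 0.245 and 0.209 CPM. No fold is given, and a difference in Grem1 was not detectable at this depth.

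The response genes showed small differences or none beyond the spread. Id1 (chr2:152561987-152563146, plus strand) was the only one of the 4 whose groups did not overlap. It stood at 29.4 and 29.6 CPM in the mutants and 38.4 and 35.8 CPM in wild type, with means of 29.5 ± 0.128 and 37.1 ± 1.80 CPM (SD, n = 2) and a log2 fold change of -0.33 (SE 0.12). The other Id genes and Smad6 did not share this separation. Id2 (chr12:25778666-25780957, minus strand), expressed in many progenitor cells, had 72.0 and 66.3 CPM in the mutants and 77.2 and 57.1 CPM in wild type, so that both mutants lay between the wild-type libraries (log2 fold change 0.04, SE 0.16).

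Id3 (chr4:135699412-135701670, plus strand) had 65.5 and 87.1 CPM in the mutants and 76.7 and 91.7 CPM in wild type (log2 fold change -0.14, SE 0.16). Here the second library of each genotype was the higher one, by 0.41 and 0.26 on the log2 scale, more than the difference between the genotypes. Smad6 (chr9:63800953-63869866, minus strand) had 13.7 and 16.6 CPM in the mutants and 17.1 and 15.0 CPM in wild type (log2 fold change -0.08, SE 0.17). The fold changes of Id2, Id3 and Smad6 each changed sign in 2 of 10 alternative analyses. Those of Id1 and of the 4 ligands kept theirs in all 10 and that of Rubie in the 9 that could be fitted. Where groups do not overlap, leaving out a library can hardly turn the sign, so the kept signs restate the separation and add no support.

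Per kb of exon, the mean levels in wild type ran in the order Id2 (52.9), Id3 (47.0), Id1 (32.0), Bmp2 (11.4), Bmp7 (10.1), Smad6 (5.12), Bmp4 (2.19) and Bmp5 (1.41 CPM per kb). Id2 and Id3 overlapped between libraries and their order is not resolved. In the mutants the order was Id2 (54.4), Id3 (42.6), Id1 (25.4), Bmp7 (11.4), Bmp2 (6.58), Smad6 (4.82), Bmp4 (4.38) and Bmp5 (0.343 CPM per kb). Bmp7 and Bmp2 thus changed places, and Bmp4 came level with Smad6, with which its mutant libraries overlapped. On the 388 exonic bases of its GENCODE M1 model, Rubie would stand at 7.95 CPM per kb in the mutants, between Bmp7 and Bmp2, and at 0.663 CPM per kb in wild type, below Bmp5. All of these levels rest on GENCODE M1 lengths, and the annotation used for the counting is not given in the sources used here.

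The rest of the pathway was read from 5 lists with 69 genes, 56 of which were tested. None of the 56 passed the adjusted threshold with edgeR (0 higher and 0 lower, against 0.0130% and 0.0453% of all genes) or with DESeq2. At an unadjusted p under 0.05 there were 9, or 16.1% beside 5.69% of all genes. With the replicate number added to the edgeR fit as a block, 2 of the 56 passed the adjusted threshold, among them Bmp3. In that fit 2.49% of all genes passed, and the labels do not say what the replicate number marks. Both mutant libraries were higher in 8 of the 56 genes and lower in 14, beside 15.8% and 15.1% of all genes. The median log2 fold change was -0.04, with 17 positive and 39 negative values. The lists were chosen with earlier results of these data known.

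Among 11 other ligands, 4 were tested. Bmp3, a ligand that counteracts other BMPs, had 16 and 22 counts in the mutants and 5 in each wild-type library, or 1.45 and 1.46 CPM against 0.291 and 0.283 CPM. The libraries of each genotype were nearly alike, and the log2 fold change was 2.31 (SE 0.49, edgeR adjusted p = 0.3045). Gdf6 stood at 9.07 and 8.91 CPM in the mutants and 4.53 and 6.46 CPM in wild type (log2 fold change 0.71, SE 0.25, edgeR adjusted p = 0.7543). The germ cell ligand Gdf9 (0.15) and Bmp6 (-0.19) had smaller log2 fold changes.

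Of 13 receptors and coreceptors, 12 were tested, with log2 fold changes from -0.38 to 0.56. Bmpr1b, a type I receptor, was at 14.2 and 14.8 CPM in the mutants and 8.54 and 11.1 CPM in wild type (0.56, SE 0.19, edgeR adjusted p = 0.7366). Both mutants were above both wild types. The type I receptors Acvr1 (-0.34, SE 0.12, adjusted p = 0.7543) and Acvrl1 (-0.38, SE 0.14, adjusted p = 0.8061), the latter mainly of endothelial cells, were lower in both mutants. The highest levels in this list per kb of exon belonged to Amhr2, the receptor of anti-Müllerian hormone (90.1 CPM per kb in the mutants and 77.0 in wild type, log2 fold change 0.23, SE 0.12), and Bmpr1a (41.1 and 42.3 CPM per kb, log2 fold change -0.04).

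Extracellular modulators varied most at low levels. Of 19, 16 were tested, with a median log2 fold change of -0.01. Chrdl1, which binds BMP4, was at 0.907 and 0.665 CPM in the mutants and 2.03 and 1.19 CPM in wild type, so both mutants lay below both wild types (log2 fold change -1.04, SE 0.48, edgeR adjusted p = 0.9377). The more abundant modulators had log2 fold changes of 0.14 (Fst, follistatin), -0.18 (Fstl1) and -0.25 (Crim1). Sostdc1, singled out after its values were seen, had 12 and 0 counts in the mutants and 16 and 1 in wild type and so split by replicate number, not by genotype.

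All 11 intracellular transducers and regulators were tested, and their log2 fold changes lay between -0.22 and 0.29. Smad5, a BMP-responsive Smad, was at 320 and 302 CPM in the mutants and 365 and 357 CPM in wild type (-0.22, SE 0.09, edgeR adjusted p = 0.8477). It was lower in both mutants, as were Smad4 (-0.09), the partner of the receptor-activated Smads, and the ubiquitin ligase Smurf1 (-0.11). Tob1, a repressor of Smad-dependent transcription, was at 39.3 and 36.3 CPM in the mutants and 29.6 and 32.1 CPM in wild type (0.29, SE 0.12, edgeR adjusted p = 0.8603). Smad1 overlapped between the groups (-0.20).

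Of 15 other response genes, 13 were tested, and their log2 fold changes ran from -0.51 to 0.00 with a median of -0.20. In 4 of them both mutants were lower and in 0 both were higher, beside 15.1% and 15.8% of all genes. Tbx3 stood at 5.99 and 5.78 CPM in the mutants and 8.37 and 8.39 CPM in wild type (-0.51, SE 0.21, edgeR adjusted p = 0.8707), and its paralogue Tbx2 had a log2 fold change of -0.24 (SE 0.11, adjusted p = 0.9153). Bambi, a pseudoreceptor that is itself a BMP target, was at 47.6 and 53.8 CPM against 55.8 and 60.8 CPM (-0.20, SE 0.12). Msx2 (-0.31) and Gata2 (-0.02) overlapped between the groups, as did Zglp1 (0.00), a germ cell regulator that responds to BMP, at 15.6 and 15.4 CPM against 17.6 and 13.3 CPM.

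**Figure D4:**
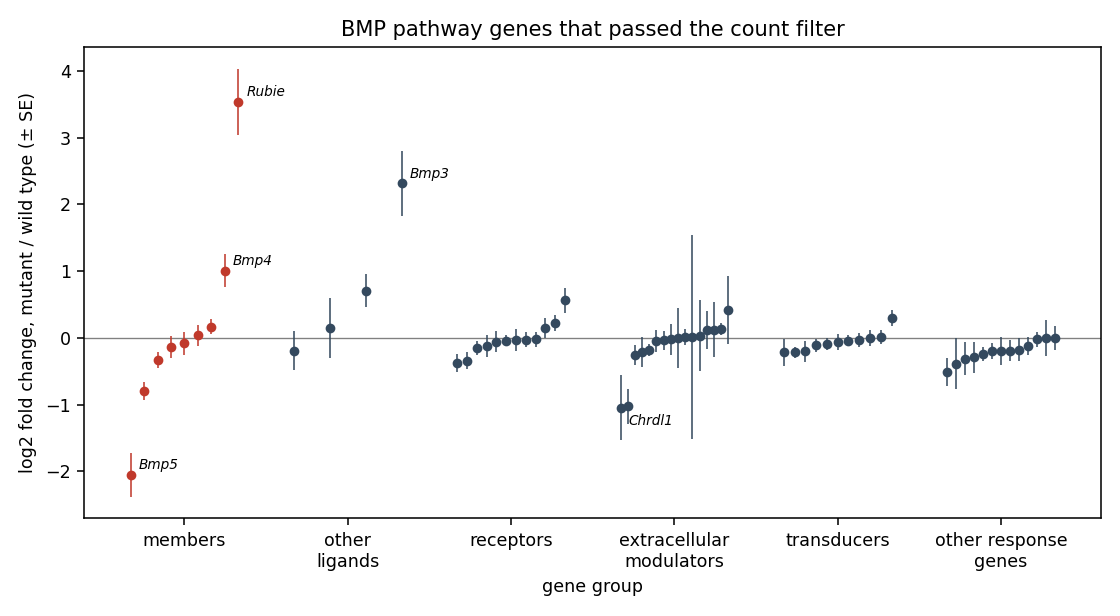
Log2 fold change (mutant relative to wild type) with SE for the 9 tested members (red) and the 56 tested genes of the 5 pathway lists (dark); each point is 1 gene. Among the listed genes Bmp3 (2.31) is the highest and Chrdl1 (-1.04) is the lowest; the longest error bar is that of Sostdc1 (SE 1.53).

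Markers of the cell types that the dissected tissue can hold also differed somewhat. Of 10 markers of interstitial and mesonephric mesenchyme, 7 were lower in both mutants (median log2 fold change -0.51), beside 15.1% of all genes tested, for example Tcf21 at 28.0 and 23.3 CPM against 57.7 and 51.7 CPM, although the summed level overlapped (1340 to 2080 CPM in the mutants and 1990 to 2090 CPM in wild type). In all, 4 of 7 pre-granulosa markers were higher in both mutants (beside 15.8% of all genes), with a summed level of 750.0 to 764 CPM against 648 to 666 CPM. Of 10 endothelial markers, 4 were lower in both mutants (beside 15.1% of all genes), with a summed level of 477 to 502 CPM against 524 to 554 CPM. Kdr weighed heavily in this sum, at 95.1 and 90.5 CPM against 129 and 126 CPM. The similarly abundant Pecam1 and Cdh5 overlapped between the groups (log2 fold changes 0.01 and 0.03), so the list did not fall as a whole. Bmp2, given above as a gene of the supporting lineage, was lower in the mutants while the summed pre-granulosa markers were higher. Lgr5 weighed heavily in that sum, at 164 and 152 CPM against 109 and 97.3 CPM. Wnt4, Rspo1 and Runx1 overlapped between the groups (log2 fold changes 0.01, -0.06 and 0.04). The pre-granulosa list thus did not rise as a whole. The part of the cell types in the differences of the ligands was not tested. Summed germ cell markers (1450 to 1700.0 CPM in the mutants and 1530 to 1650 CPM in wild type) and duct and tubule markers (176 to 193 and 166 to 194 CPM) overlapped. Most of the duct and tubule sum was Emx2, at 138 and 141 CPM against 129 and 152 CPM. Of 7 tested in that list, 1 was higher in both mutants and 1 lower (beside 15.8% and 15.1% of all genes). These were Pax8 (13.9 and 17.7 CPM against 9.07 and 9.07 CPM) and Ret (8.71 and 14.3 CPM against 15.2 and 17.8 CPM). Sertoli cell markers were low in all libraries, with 3 counts of the defining gene Amh in each. Their sum was higher in both mutants (17.2 to 19.1 against 13.7 to 16.8 CPM). Of 5 tested, 2 were higher in both mutants (beside 15.8% of all genes), among them Ptgds at 3.45 and 4.45 CPM against 1.16 and 1.19 CPM. Ptgds weighed heavily in the sum, and the median log2 fold change of the 5 was -0.08. Dhh (-0.12), Sox8 (-0.08) and Cyp26b1 (-0.11) overlapped between the groups. Blood markers ran from 869 to 3180 CPM in the mutants and from 1680 to 3490 CPM in wild type, with Hba-a2 and Hbb-b1 at 0 in every library. With edgeR, 0 of the 51 markers tested passed the adjusted threshold, 13 had an unadjusted p under 0.05 (beside 5.69% of all genes) and DESeq2 called 5 (beside 0.714%), among them the pre-granulosa marker Lgr5, higher in the mutants, and the mesenchymal markers Pdgfra and Tcf21, lower.

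The genes whose pattern over the 4 libraries came closest to Bmp4, by Euclidean distance between centred log2 CPM, were Ifi35 (distance 0.0553), Hesx1 (0.119) and Ctxn3 (0.12). Ifi35 and Hesx1 were rare, at 5 to 18 counts a library, and Ctxn3 had 31 to 76 counts. Closest to Rubie were Sall1 itself (0.732), F2rl1 (0.781) and Cntnap5a (0.943). F2rl1, which encodes a protease-activated receptor, stood at 2.81 and 3.12 CPM in the mutants and 0.407 and 0.453 CPM in wild type, and Cntnap5a, of a neuronal adhesion family, at 20.7 and 14.1 CPM against 2.79 and 4.99 CPM. With 4 libraries, such likeness mostly restates the difference between the genotypes.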

How the data were processed

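Ovaries of E13.5 mouse embryos were profiled by RNA-seq, with 2 libraries of mutants overexpressing Sall1 and 2 of wild type. The authors aligned the reads to mm9 with STAR 2.6.1d, per the submitters' processing notes, and deposited raw counts per gene; per the study's methods the R function summarizeOverlaps did the counting, and the annotation and use of strand are not given in the sources used here. All 34682 rows named a gene, and 22242 had a count. The counts were tested with edgeR 4.0.16 in R 4.3.3 (TMM scaling, filterByExpr, quasi-likelihood F-test, genotype only), with Benjamini-Hochberg adjustment over the 15442 genes kept and a threshold of 0.05. CPM are counts divided by the TMM-scaled library size. DESeq2 1.42.0, other scalings and filters, a replicate block and each library left out were alternatives. Totals of 11036313 to 17869840 counts place 3 counts, taken as the detection floor, at 0.17 to 0.272 CPM; intervals and floors cover counting error only.

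The members and all gene lists were chosen with earlier results of these data known. Beyond the members, the text names per pathway list the genes past the threshold or, failing 4 of these, those with the smallest unadjusted p up to 4, with the 2 of highest level; tested genes starting within 1 Mb of Bmp4; the 3 genes nearest in pattern to Bmp4 and to Rubie; and markers at 0. Other marker genes and Sostdc1 were named after their values were seen. Positions and exon lengths are from GENCODE M1 (NCBIM37, equal to mm9), sequences from RefSeq (GRCm38.p6). Mole data were not analysed here, and single values of some listed genes are not reported here.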

Additional observations from a re-analysis of the deposited data

How the results depend on the processing

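The number of genes called moved from 9 to 105 with DESeq2, 28 without a filter on low counts and 19 with at least 10 counts in every library, stayed at 10 with RLE and with upper-quartile scaling, and ran from 4 (without wild type replicate 2) to 130 (without mutant replicate 1) when a library was left out, with 38 without mutant replicate 2 and 7 without wild type replicate 1; the cause was not tested. In those fits the lone library of a group is assumed to vary like the other group. With the replicate number as a block, 385 genes were called, among them 4 members (Bmp2, Bmp4, Bmp5 and Rubie), and the pathway genes called went from 0 to 2, among them Bmp3 (log2 fold change 2.31, edgeR adjusted p = 0.029), against 0 in the other 9 alternatives. The libraries that share a replicate number also carry consecutive library numbers in the column headers, the labels do not say that a number marks a litter, day or batch, and their deviations correlated at 0.481. Members called were 3 with DESeq2, 1 (Rubie) without a filter, 2 (Bmp2 and Bmp5) without mutant replicate 1 and 0 in the rest. Over all alternatives the log2 fold change ran from 0.76 to 1.20 for Bmp4, from -2.32 to -1.80 for Bmp5, from -0.89 to -0.70 for Bmp2 and from 3.14 to 4.08 for Rubie, which the filter at 10 counts removes. Sign changes among 25 named pathway genes touched 5, none past the threshold. These were Bmp6 (leave-one-out range -0.41 to 0.087), Gdf9 (-0.21 to 0.64), Msx2 (-0.57 to 0.011), Gata2 (-0.12 to 0.07, and 0.028 without wild type replicate 1) and Zglp1 (-0.18 to 0.22). Zglp1 also turned with DESeq2 (-0.0027), RLE (-3e-05), upper-quartile scaling (-0.0098), no filter (-0.0068), at least 10 counts (-0.00078) and without mutant replicate 1 (-0.011). With raw counts in place of counts per kb, the mean share of the ligand sum was 12.2 and 5.32% for Bmp4 (mutant and wild type), 56.9 and 44.2% for Bmp7 and 6.19% for Bmp5 in wild type. Rubie, at 3 to 41 counts a library, and Grem1, at 0 to 4, had the fewest counts of the members, and depth limits what can be said of both.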
